A study of Mus musculus with 20 samples.

Results

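The 43 genes described here encode structural proteins of the extracellular matrix and the enzymes and regulators that act on it. They were chosen by name among the 40322 gene symbols of the series, with earlier results of these data known. Counts of these genes set beside those of all genes therefore describe the list and test nothing. Every one of the 43 had 1 row in the count table. RNA was measured in subcutaneous white adipose tissue (SAT) and liver of male C57BL/6J mice, an inbred laboratory strain. The mice had been operated on at 8 to 9 months of age, and every group ate a high-fat diet after the operation. The 4 groups of 5 libraries were VAT removed SAT, sham SAT, VAT removed liver and sham liver. VAT removal took out the epididymal fat pads, a visceral adipose tissue (VAT) depot of males, whereas the sham operation opened the abdomen and left the fat in place. No group stayed on chow and none was left without an operation, so each contrast is between 2 operated groups on 1 diet, and the other visceral depots were not described as removed. The labels do not say whether liver and SAT libraries with the same number came from 1 mouse, nor whether RNA of several mice was pooled. If some libraries of a group share an animal, p-values cover only the spread between libraries.

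The extracellular matrix is the protein meshwork around cells. Fibrillar collagens form its tensile cables, collagen IV and laminins form the sheet-like basement membrane on which adipocytes and vessels rest, and collagen VI filaments anchor cells to the surrounding fibres. Lysyl oxidases cross-link collagen and elastin, metalloproteases cut them, and their inhibitors (TIMPs) hold the proteases back. In expanding fat the matrix is laid down mostly by fibroblast-like stromal cells, with adipocytes and endothelial cells adding basement membrane, and in liver mostly by hepatic stellate cells and portal fibroblasts, while hepatocytes secrete fibronectin and collagen XVIII.

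Libraries held 20307159 to 43618452 counts in genes. Levels are CPM, counts scaled to a common library size with TMM factors within a tissue. A log2 difference is the VAT removed value less the sham value, with the standard error (SE) of the fit, and adjusted p-values are from edgeR's quasi-likelihood test over all genes of a tissue. A call means an adjusted p under 0.05. Adipocyte markers (7 genes) summed to 9606 to 11660 CPM in VAT removed SAT and 6274 to 13210 CPM in sham SAT. Hepatocyte markers (7 genes) summed to 51660 to 67930 CPM in VAT removed livers and 52460 to 70400 CPM in sham livers, so both tissues carried their labelled cell type. The sham SAT libraries 3 and 4 stood apart from the other 8 SAT libraries. Their 14 lymphocyte and lymph node markers summed to 958 and 981 CPM, against 17.2 to 27.1 CPM in VAT removed SAT and 17.0 to 23.0 CPM in sham SAT libraries 1, 2 and 5. Their 10 fibroblast and adipose progenitor markers summed to 438.6 and 609.8 CPM, against 803 to 1223 CPM in VAT removed SAT and 1338 to 1646 CPM in the other 3 sham SAT libraries. Their adipocyte markers summed to 7205 and 6274 CPM, against 11200 to 13210 CPM in the other 3 sham SAT libraries. No gene of the lymphocyte or fibroblast list was at 0 throughout a group. VAT removed SAT library 2 held 28110 CPM of the 10 skeletal muscle markers, against 35.7 to 1210 CPM in the other 4 VAT removed SAT libraries and 17.8 to 2441 CPM in sham SAT. SAT differences are therefore given with all 10 libraries and without sham libraries 3 and 4. In bulk tissue, fewer cells of a type and less RNA per cell cannot be told apart.

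In SAT, matrix genes were mostly higher after VAT removal when all 10 libraries were used, and the excess shrank when sham libraries 3 and 4 were left out. Of the 43 genes, 39 had a positive log2 difference and 4 a negative one, with a median of 0.27, where the median over all 18530 genes tested was -0.002. No matrix gene was called by edgeR, which called 0% of all genes. At an unadjusted p under 0.05, 9 matrix genes were higher and 0 lower, against 4.38% of all genes higher and 6.27% lower. DESeq2 called 1 matrix gene higher, Thbs2, among 158 of all genes, and limma-voom called 0 of all genes. Without sham libraries 3 and 4, 25 matrix genes had a positive difference and 18 a negative one, with a median of 0.07, and 15 genes turned negative and 1 (Tgfb1) positive. In those 8 libraries edgeR again called 0 matrix genes and 0% of all 19035 genes. At an unadjusted p under 0.05, 4 matrix genes were then higher (Thbs2, Eln, Col6a2 and Col6a1) and 4 lower (Mfap5, Loxl1, Timp2 and Dcn), against backgrounds of 4.7% higher and 4.07% lower. Sham libraries 3 and 4 were the 2 lowest of the 10 SAT libraries for 30 of the 43 genes, and the 2 highest for 1, Tgfb1.

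**Figure D1:**
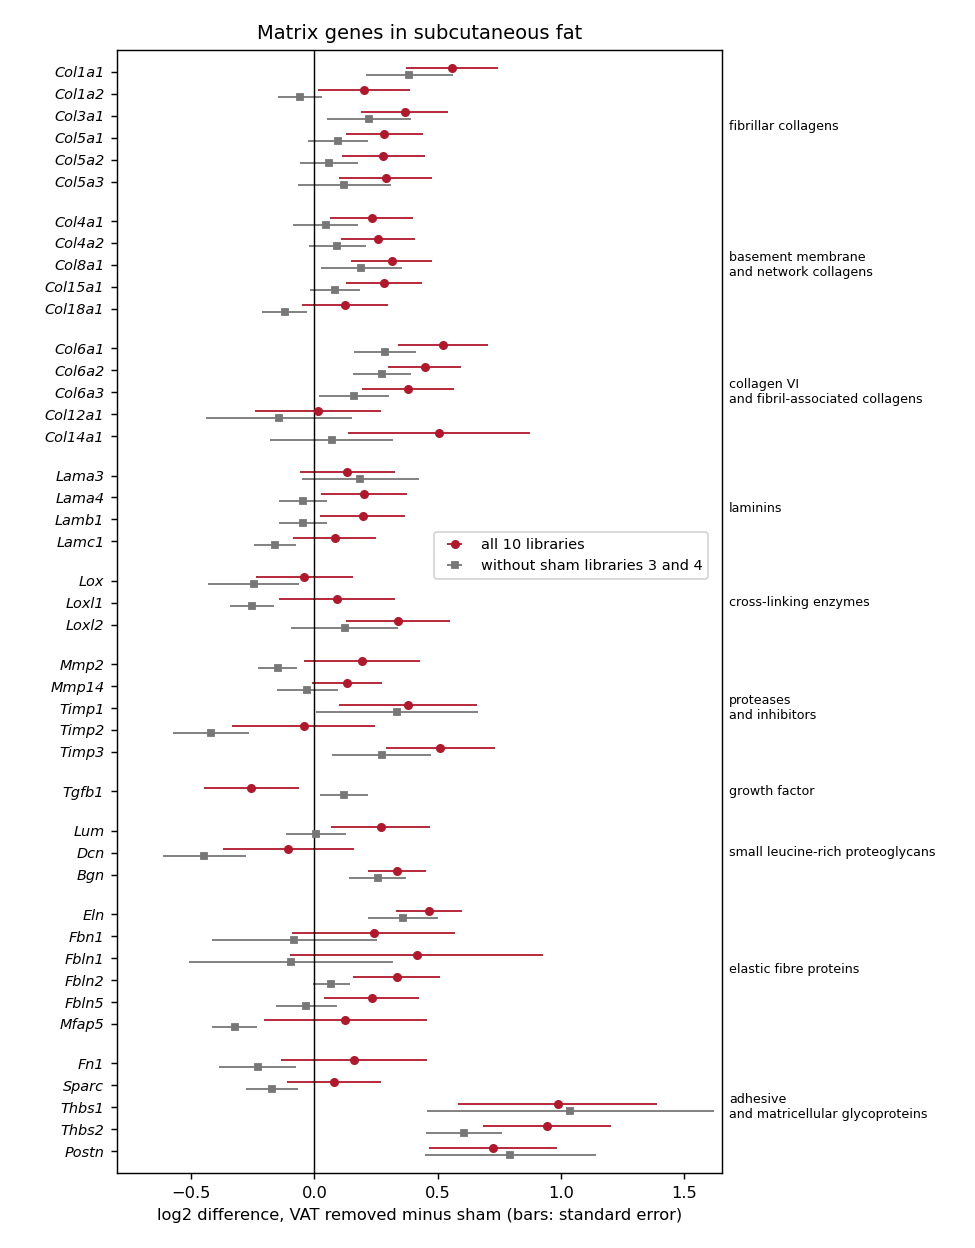
Log2 difference between VAT removed SAT and sham SAT for each of the 43 matrix genes, with the standard error of the fit as bars, in the order of their roles. Circles use all 10 libraries and squares leave out sham libraries 3 and 4: the squares lie left of the circles for most genes. Farthest right of 0 in both are Thbs1 (0.99 and 1.04), Thbs2 (0.94 and 0.61) and Postn (0.72 and 0.79).

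Thbs2, which encodes thrombospondin-2, a matricellular glycoprotein that binds collagen fibrils and metalloproteases, had the smallest p of the 43 in SAT. It had 300.4, 239.9, 212, 329 and 288 CPM in VAT removed SAT, against 158, 209, 74.7, 99 and 172 CPM in sham SAT. The groups did not overlap, with sham libraries 3 and 4 lowest and sham library 2 just below VAT removed library 3. The fit gave a log2 difference of 0.94 ± 0.26 (edgeR adjusted p = 0.431), and 0.61 ± 0.15 without sham libraries 3 and 4 (edgeR adjusted p = 0.555). With DESeq2 it was called at an adjusted p of 0.046 with all libraries. Its promoter window is shown because Thbs2 had the smallest p of the 43 in SAT under both sets of libraries. The window runs from 250 bases before to 50 after the RefSeq start (GRCm38.p6, chr17:14694213-14694512, minus strand), and capitals mark matches on either strand to CCAAT, the box bound by NF-Y, or TATAAA, the TATA box.
Thbs2: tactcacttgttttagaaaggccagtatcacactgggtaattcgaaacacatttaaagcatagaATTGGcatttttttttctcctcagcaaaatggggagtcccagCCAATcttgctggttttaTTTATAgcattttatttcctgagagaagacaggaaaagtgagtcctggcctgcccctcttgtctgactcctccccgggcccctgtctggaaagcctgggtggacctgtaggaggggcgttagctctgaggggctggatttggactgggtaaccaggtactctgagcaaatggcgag
Counting the start as 1 and giving the first base of a match, it holds CCAAT at -186 and -144 and TATAAA at -126. Of all 32851 RefSeq windows of this length in mouse, 37.4% held CCAAT and 13.6% held TATAAA.

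Postn and Thbs1 were the other matricellular genes with high values after VAT removal. Postn, periostin, a protein of collagen-rich and remodelling connective tissue, had 213, 211, 159, 367 and 347 CPM in VAT removed SAT, against 174, 90.8, 163, 175 and 183 CPM in sham SAT. VAT removed libraries 4 and 5 stood above the other 8, and VAT removed library 3 lay below 4 of the 5 sham libraries. Its log2 difference was 0.72 ± 0.26 (edgeR adjusted p = 0.431) and 0.79 ± 0.35 without sham libraries 3 and 4. Thbs1, thrombospondin-1, which can activate latent TGF-beta, had 212, 161, 288, 679 and 368 CPM in VAT removed SAT, against 149, 81.8, 193, 171 and 266 CPM in sham SAT. Library 4 of the VAT removed group held more than any other, and the groups overlapped. On the log2 scale the difference was 0.99 ± 0.40 (edgeR adjusted p = 0.438), and 1.04 ± 0.58 without sham libraries 3 and 4. Sparc, a collagen-binding glycoprotein of fat and bone, had 4285, 4794, 4831, 4307 and 5469 CPM in VAT removed SAT, against 5466, 5072, 3402, 3061 and 5420 CPM in sham SAT. Only sham libraries 3 and 4 were below every VAT removed library, and the log2 difference was 0.08 ± 0.19 with all libraries and -0.17 ± 0.10 without those 2. Fn1, fibronectin, ranged over 989.8 to 1571 CPM in VAT removed SAT and 608 to 1815 CPM in sham SAT, with a log2 difference of 0.16 ± 0.30 with all libraries and -0.23 ± 0.16 without sham libraries 3 and 4.

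All 6 fibrillar collagen genes had positive log2 differences in SAT with all libraries, between 0.20 and 0.56, and 1 of them had an unadjusted p under 0.05. Col1a1, the alpha-1 chain of type I collagen, the main fibril-forming collagen of connective tissue, had 2998, 2629, 2029, 3508 and 2602 CPM in VAT removed SAT, against 2392, 1731, 1524, 1514 and 2185 CPM in sham SAT. VAT removed library 3 lay below sham libraries 1 and 5, so the groups overlapped. This was a log2 difference of 0.56 ± 0.19 (edgeR adjusted p = 0.431), and 0.39 ± 0.18 without sham libraries 3 and 4. Its partner chain Col1a2 had a log2 difference of 0.20 ± 0.19 with all libraries and -0.06 ± 0.09 without those 2. Whether the 2 chains of this protein differed in response was not tested. Col3a1, which forms fibrils with type I collagen in elastic tissues, had 3536, 3856, 3478, 4981 and 4063 CPM in VAT removed SAT, against 4064, 2550, 2533, 2699 and 3600 CPM in sham SAT. Sham library 1 exceeded 4 of the 5 VAT removed libraries, so the groups overlapped. Its log2 difference was 0.37 ± 0.18 (edgeR adjusted p = 0.49), and 0.22 ± 0.17 without sham libraries 3 and 4. Of the type V collagens, which set fibril diameter, Col5a1, Col5a2 and Col5a3 had log2 differences of 0.28, 0.28 and 0.29 with all libraries, and 0.10, 0.06 and 0.12 without sham libraries 3 and 4.

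The 3 collagen VI genes were among the 24 of 43 with a positive difference in SAT under both sets of libraries. Collagen VI makes the beaded filaments that surround adipocytes. Col6a2 (chr10:76595762-76623630, minus strand, GRCm38) had 935, 939, 866, 1202 and 1023 CPM in VAT removed SAT, against 859, 749, 612, 574 and 848 CPM in sham SAT. The groups did not overlap, with VAT removed library 3 just above sham library 1. Its log2 difference was 0.45 ± 0.15 (edgeR adjusted p = 0.431) with all libraries and 0.28 ± 0.12 without sham libraries 3 and 4. Col6a1, its neighbour on chromosome 10, had 1009, 837, 813, 1152 and 938 CPM in VAT removed SAT, against 732, 752, 494, 486 and 845 CPM in sham SAT. VAT removed libraries 2 and 3 lay below sham library 5, and the other 3 were above all sham libraries. The log2 difference was 0.52 ± 0.18 with all libraries and 0.29 ± 0.13 without sham libraries 3 and 4, each with an unadjusted p under 0.05 and not called by edgeR (adjusted p = 0.431 and 0.562). Col6a3, the third chain, had 0.38 ± 0.19 and 0.16 ± 0.14. Col12a1 and Col14a1, which coat the surface of collagen fibrils, had log2 differences of 0.01 ± 0.25 and 0.51 ± 0.37 with all libraries and -0.14 and 0.07 without those 2.

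Elastic fibre genes had the second smallest p, for Eln, which encodes tropoelastin, the extensible core of elastic fibres. Eln had 86.7, 117, 84.3, 87.2 and 91.1 CPM in VAT removed SAT, against 77.3, 57.7, 63.4, 56.8 and 82.9 CPM in sham SAT. The groups did not overlap, and VAT removed library 2, the one with the most skeletal muscle RNA, was highest. The fit gave a log2 difference of 0.47 ± 0.13 (edgeR adjusted p = 0.431), and 0.36 ± 0.14 without sham libraries 3 and 4. Fbln2, fibulin-2, a glycoprotein at the interface of elastic fibres and basement membranes, had 317, 359, 327, 336 and 362 CPM in VAT removed SAT, against 318, 331, 192, 188 and 322 CPM in sham SAT. Apart from sham libraries 3 and 4 the groups overlapped, and the log2 difference was 0.33 ± 0.18 with all libraries and 0.07 ± 0.07 without those 2. Mfap5, a microfibril glycoprotein, had 69.1, 69.4, 63.1, 69.8 and 55 CPM in VAT removed SAT, against 84.0, 74.8, 24.7, 30.2 and 85.6 CPM in sham SAT. The VAT removed values lay between the 2 lowest and the 3 highest sham libraries. Its log2 difference was 0.12 ± 0.33 with all libraries and -0.32 ± 0.09 without sham libraries 3 and 4, where the groups did not overlap (edgeR adjusted p = 0.555). Fbn1, fibrillin-1, the microfibril backbone, ranged widely in sham SAT, 360.4 to 1123 CPM, against 523 to 862 CPM in VAT removed SAT. The log2 difference of Fbn1 was 0.24 ± 0.33 with all libraries and -0.08 ± 0.33 without sham libraries 3 and 4, and those of the fibulins Fbln1 and Fbln5 were 0.41 and 0.23 with all libraries and -0.09 and -0.03 without those 2. Of the exon bases of Fbn1 20.1% overlap the exons of an opposite-strand gene, and the strand setting of the counting is not given, so its reads may be shared.

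Small leucine-rich proteoglycans, which coat collagen fibrils and limit their lateral fusion, shared no direction. Bgn, biglycan (chrX:73483602-73495933, plus strand, GRCm38), had 412, 435, 424, 566 and 519 CPM in VAT removed SAT, against 389.9, 385, 326, 359.6 and 407 CPM in sham SAT. The groups did not overlap, with VAT removed library 1 just above sham library 5. On the log2 scale the difference was 0.34 ± 0.12 (edgeR adjusted p = 0.431), and 0.26 ± 0.12 without sham libraries 3 and 4. Dcn, decorin, had 546, 510.2, 662, 436 and 433 CPM in VAT removed SAT, against 768, 799.8, 305, 366 and 543 CPM in sham SAT. Sham libraries held both the highest and the lowest values, and the log2 difference was -0.11 ± 0.27 with all libraries and -0.45 ± 0.17 without sham libraries 3 and 4 (edgeR adjusted p = 0.561). Lum, lumican, had 0.27 ± 0.20 and 0.01 ± 0.12.

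**Figure D2:**
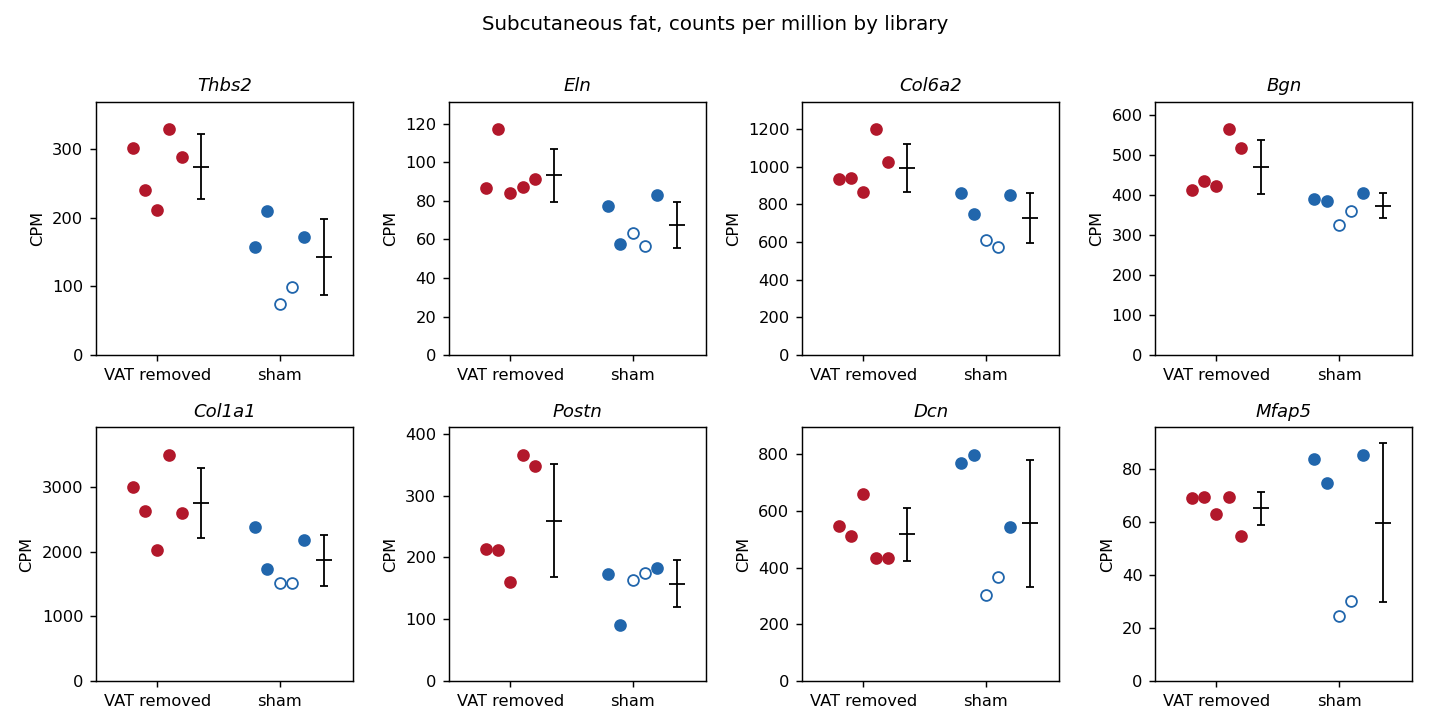
CPM in each SAT library for 8 matrix genes, VAT removed on the left (red) and sham on the right (blue), with the mean ± SD of 5 libraries beside each group. Open circles are sham libraries 3 and 4: for Dcn and Mfap5 they are the lowest of all 10 while the other 3 sham libraries of Mfap5 are the highest, and for Thbs2, Eln, Col6a2 and Bgn the groups do not overlap.

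Basement membrane genes had small positive differences with all libraries, and 4 of the 9 were negative without sham libraries 3 and 4. Col4a1, the alpha-1 chain of collagen IV, had 3088, 3690, 3403, 3695 and 4228 CPM in VAT removed SAT, against 3594, 2945, 2529, 2389 and 3953 CPM in sham SAT. Sham libraries 1 and 5 lay inside the VAT removed range, and the log2 difference was 0.23 ± 0.17 with all libraries and 0.05 ± 0.13 without sham libraries 3 and 4. Col4a2 had 0.26 ± 0.15 and 0.09 ± 0.12. Lamc1, the gamma chain of most laminins, had 688, 727, 724, 803 and 761 CPM in VAT removed SAT, against 885, 774, 532, 494 and 815 CPM in sham SAT. Sham library 1 held the highest value and sham libraries 3 and 4 the 2 lowest, and the log2 difference was 0.08 ± 0.17 with all libraries and -0.16 ± 0.09 without those 2. On the log2 scale Col8a1, Col15a1 and Col18a1, of network-forming and multiplexin collagens, had 0.31, 0.28 and 0.12 with all libraries, and 0.19, 0.08 and -0.12 without sham libraries 3 and 4. The laminin chains Lama3, Lama4 and Lamb1 had 0.13, 0.20 and 0.20 with all libraries, and 0.19, -0.05 and -0.05 without those 2. Of the 4 laminin genes, 4 were thus positive with all libraries and 1, Lama3, without sham libraries 3 and 4.

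Cross-linking enzymes, proteases and inhibitors showed no common direction in SAT. Lox, lysyl oxidase, had 221, 324, 269, 245 and 352 CPM in VAT removed SAT, against 408, 254, 214, 236 and 339 CPM in sham SAT. The ranges were nested, with a log2 difference of -0.04 ± 0.20 with all libraries and -0.25 ± 0.18 without sham libraries 3 and 4. Loxl1, which cross-links elastin, had 0.09 ± 0.24 with all libraries and -0.25 ± 0.09 without those 2, when its groups did not overlap at the scaling of that fit. At the scaling of all 10 libraries, VAT removed library 2 (214 CPM) lay just above sham library 2 (213 CPM). Timp3, an inhibitor that binds to the matrix, had 369, 274, 317, 489 and 442 CPM in VAT removed SAT, against 243, 352, 189.8, 201 and 343 CPM in sham SAT. Sham libraries 2 and 5 lay above VAT removed libraries 2 and 3, and the log2 difference was 0.51 ± 0.22 (edgeR adjusted p = 0.45) with all libraries and 0.27 ± 0.20 without sham libraries 3 and 4. Of its exon bases 21.3% overlap exons of Syn3 on the opposite strand. Timp2, which both inhibits proteases and helps activate Mmp2, had 500.1, 448, 552, 330 and 406 CPM in VAT removed SAT, against 626, 629, 211, 301 and 536 CPM in sham SAT. Sham libraries 1 and 2 held the 2 highest values and sham libraries 3 and 4 the 2 lowest, and the log2 difference was -0.04 ± 0.29 with all libraries and -0.42 ± 0.15 without those 2. Tgfb1, the growth factor that drives collagen production in fibroblasts, had 72.0, 66.5, 64.8, 71.4 and 63.2 CPM in VAT removed SAT, against 71.3, 53.0, 108, 109 and 61.8 CPM in sham SAT. Sham libraries 3 and 4 were the 2 highest, and the log2 difference was -0.26 ± 0.19 with all libraries and 0.12 ± 0.10 without them. Mmp2 and Mmp14, a gelatinase and the membrane protease that activates it, had 0.19 and 0.13 on the log2 scale with all libraries and -0.15 and -0.03 without sham libraries 3 and 4. Loxl2 and Timp1 had 0.34 and 0.38 with all libraries and 0.12 and 0.34 without those 2.

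Counted over the 43 genes, 4 had groups that did not overlap and were higher after VAT removal (Thbs2, Eln, Col6a2 and Bgn) and 0 were lower, against 0.831% and 0.61% of all genes tested. Without sham libraries 3 and 4 the same 4 genes did not overlap on the higher side, and Mfap5 and Loxl1 did not overlap on the lower side, against 3.14% and 2.98% of all genes. Marker genes of other cells also took different values in the 2 sets of libraries. All 14 lymphocyte markers had lower values after VAT removal with all libraries (median log2 difference -4.14), and without sham libraries 3 and 4, 9 were higher and 5 lower (median 0.22). Of the 10 fibroblast and adipose progenitor markers, 6 were higher and 4 lower with all libraries (median 0.02), and 1 was higher and 9 lower without those 2 (median -0.43, with 6 lower at an unadjusted p under 0.05). All 7 smooth muscle markers were higher with all libraries (median 0.41) and 6 of 7 without those 2 (median 0.43). Under both sets of libraries, 3 of the 7 were higher at an unadjusted p under 0.05. All 8 endothelial markers were higher with all libraries (median 0.25, with 2 at an unadjusted p under 0.05), and 7 of 8 without sham libraries 3 and 4 (median 0.17, with 0 at that p). All 7 adipocyte markers were higher with all libraries (median 0.11), and 1 was higher and 6 lower without those 2 (median -0.15). The part of these markers in the matrix values was not tested. Without VAT removed library 2, which held the skeletal muscle RNA, 9 matrix genes again had a positive difference at an unadjusted p under 0.05.

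In liver, matrix genes had no common direction. At an unadjusted p under 0.05, 2 of the 42 genes tested were higher after VAT removal (Mmp14 and Fn1, 4.76%) and 1 lower (Col5a3, 2.38%), against 4.68% and 5.22% of all liver genes, so the counts lay near or under the background. Of the 42 genes, 26 had positive and 16 negative log2 differences, with a median of 0.10 where the median over 17078 genes was 0.01. Mfap5 was not tested, with 0 to 0.303 CPM in VAT removed livers and 0 to 0.106 CPM in sham livers. No matrix gene was called by edgeR, which called 0% of all liver genes. DESeq2 called 1 matrix gene lower, Col5a3, among 220 of all liver genes, and limma-voom called 0 matrix genes and 3 of all liver genes.

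Col5a3, the alpha-3 chain of type V collagen, a minor fibrillar collagen that joins type I fibrils, had 45.3, 78.1, 69.5, 40.5 and 53.6 CPM in VAT removed livers, against 132, 78.8, 87.8, 97.2 and 89.1 CPM in sham livers. The groups did not overlap, although VAT removed library 2 lay just below sham library 2. The mean was 57.4 ± 16.0 CPM in VAT removed livers and 96.9 ± 20.6 CPM in the sham group (SD, n = 5 each), which is a log2 change of -0.76 ± 0.20 (edgeR adjusted p = 0.263, DESeq2 adjusted p = 0.024). The other 5 fibrillar collagens had log2 differences between -0.17 and 0.18 in liver. The promoter window of Col5a3 is shown because it had the lowest log2 difference among the matrix genes tested in liver (GRCm38.p6, chr9:20815018-20815317, minus strand, RefSeq). Capitals mark CCAAT and GGGCGG, the GC box bound by Sp1, on either strand.
Col5a3: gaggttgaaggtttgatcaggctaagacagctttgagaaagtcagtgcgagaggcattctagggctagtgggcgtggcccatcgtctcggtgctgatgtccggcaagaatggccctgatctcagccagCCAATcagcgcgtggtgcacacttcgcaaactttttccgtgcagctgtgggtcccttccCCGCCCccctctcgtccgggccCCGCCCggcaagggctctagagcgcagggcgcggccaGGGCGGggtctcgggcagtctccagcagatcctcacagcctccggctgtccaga
It holds CCAAT at -122 and GGGCGG at -63, -41 and -4. GGGCGG was in 35.7% of all windows and in 64.5% of the 31 windows of the 26 matrix genes that had one. CCAAT was in 38.7% of those 31, TATAAA in 9.68%, and TGANTCA, the AP-1 site, in 3.23% against 7.81% of all windows. The median GC content was 60.3% in the 31 windows and 52.7% in all windows, and no part of a motif in the liver or SAT values was tested.

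Fn1 and Mmp14 had higher values in VAT removed livers. Fn1 (chr1:71585520-71653200, minus strand, GRCm38) encodes fibronectin, which hepatocytes secrete into plasma, and had 4109, 3060, 3304, 3427 and 3268 CPM in VAT removed livers, against 2924, 2398, 2980, 3032 and 2163 CPM in sham livers. VAT removed library 2, the lowest of its group, lay just above sham library 4, and the groups did not overlap. This was a log2 difference of 0.35 ± 0.13 (edgeR adjusted p = 0.411). Mmp14, a membrane-bound collagenase, had 70.6, 73.7, 53.4, 58.6 and 61.9 CPM in VAT removed livers, against 46.9, 48.4, 56.1, 44.6 and 50.8 CPM in sham livers. VAT removed library 3 lay below sham library 3 and the other 4 VAT removed libraries were above all sham libraries. The log2 difference was 0.37 ± 0.10 (edgeR adjusted p = 0.261), the smallest p of the 42. Among the 42, 1 gene (Fn1) had groups that did not overlap on the higher side and 1 (Col5a3) on the lower side, against 0.937% and 1.5% of all liver genes.

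Lama3, a laminin chain of epithelial basement membranes, had a library that decided its value. It had 1.37, 1.81, 8.62, 2.0 and 2.67 CPM in VAT removed livers, against 5.0, 4.5, 3.87, 4.2 and 6.44 CPM in sham livers. VAT removed libraries 1, 2, 4 and 5 were below every sham library and VAT removed library 3 was above all of them. The fit gave a log2 difference of -0.57 ± 0.45 with all libraries (edgeR adjusted p = 0.721), and -1.29 ± 0.22 without VAT removed library 3, when it was called by edgeR (adjusted p = 0.049). That fit called 53 of all liver genes, against 0 with all libraries. Of the other laminins, Lama4 had 16.9, 25.1, 15.3, 19.4 and 16.0 CPM in VAT removed livers, against 13.3, 20.6, 13.3, 18.4 and 15.0 CPM in sham livers. These ranges overlapped, with a log2 difference of 0.20 ± 0.16. Lamb1 had 22.2, 45.6, 23.7, 35.3 and 35.4 CPM in VAT removed livers, against 20.1, 28.5, 29.0, 27.4 and 28.2 CPM in sham livers. VAT removed libraries 2, 4 and 5 were above the other 7, and the log2 difference was 0.29 ± 0.19.

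**Figure D3:**
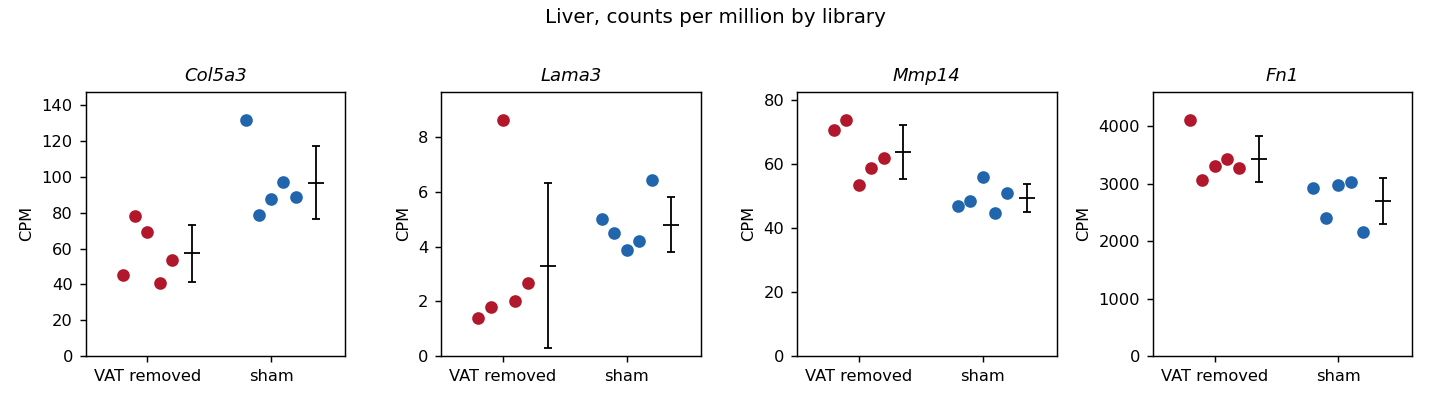
CPM in each liver library for Col5a3, Lama3, Mmp14 and Fn1, VAT removed on the left (red) and sham on the right (blue), with the mean ± SD of 5 libraries beside each group. Col5a3 and Fn1 do not overlap between groups, and 1 VAT removed library of Lama3 (8.62 CPM) lies above all others.

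For every basement membrane and fibril-associated collagen the 2 liver groups overlapped. Col18a1, a multiplexin that hepatocytes express and whose end fragment is endostatin, had 1682, 1807, 1796, 1865 and 1639 CPM in VAT removed livers, against 1690, 1271, 1722, 1715 and 1271 CPM in sham livers. Sham libraries 2 and 5 were the 2 lowest, the other 3 lay inside the VAT removed range, and the log2 difference was 0.20 ± 0.12. Col15a1 had 28.6, 49.6, 8.32, 25.6 and 34.8 CPM in VAT removed livers, against 19.2, 28.2, 17.0, 14.7 and 26.3 CPM in sham livers. VAT removed library 3 was the lowest and the other 4 were above 3 or more sham libraries, with a log2 difference of 0.48 ± 0.38. Col12a1 had 4.38, 12.7, 5.8, 5.53 and 8.52 CPM in VAT removed livers, against 10.6, 8.79, 7.87, 8.14 and 10.1 CPM in sham livers. The ranges overlapped, and the fitted difference was -0.29 ± 0.25 on the log2 scale. Postn had 10.7, 32.7, 18.2, 19.8 and 20.2 CPM in VAT removed livers, against 11.8, 15.3, 14.6, 21.2 and 14.9 CPM in sham livers. Its highest value was in VAT removed library 2 and its lowest in VAT removed library 1, and the log2 difference was 0.38 ± 0.25.

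Many liver matrix genes were highest in the same library and lowest in the same library. VAT removed library 2 was the highest of the 10 livers for 27 of the 43 genes and VAT removed library 1 the lowest for 25. The 6 fibrillar collagens summed to 241, 1116, 379, 459 and 779.9 CPM in VAT removed livers 1 to 5, against 471, 763, 554, 453 and 994 CPM in sham livers 1 to 5. Col3a1 alone had 83.4, 426, 118, 179 and 287 CPM in VAT removed livers, against 142, 292, 195, 145 and 377 CPM in sham livers, so the VAT removed range enclosed the sham range. The 6 cholangiocyte markers, genes of bile duct cells, summed to 32.3, 243, 44.8, 67.0 and 151 CPM in VAT removed livers, against 49.4, 74.0, 99.6, 51.6 and 104 CPM in sham livers. Most of this sum was Spp1, with 24 to 211 CPM in VAT removed livers and 34.1 to 84.1 CPM in sham livers. Spp1 is also in the list of other matrix proteins described below. Sox9 had 4.6 to 19.5 and 9.94 to 18.7 CPM, and Krt19, Krt7, Epcam and Cldn7 had no more than 3.84 CPM in any liver library. The lowest and the highest library were the same for both sums. The 10 hepatic stellate cell markers summed to 459 to 744 CPM in VAT removed livers and 444 to 565 CPM in sham livers, and all 10 had positive log2 differences, 1 of them at an unadjusted p under 0.05. The 6 mesothelial markers, of low level, summed to 7.47 to 18.3 CPM in VAT removed livers, highest in library 2, and 5.89 to 9.36 CPM in sham livers. All 6 had positive log2 differences (median 0.68), 2 of them at an unadjusted p under 0.05. No cholangiocyte marker was at 0 throughout a liver group, and the part of these cells in the collagen values was not tested. Without VAT removed library 2 the median of the matrix genes was -0.13, the lowest of any fit that left out 1 liver library.

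**Figure D4:**
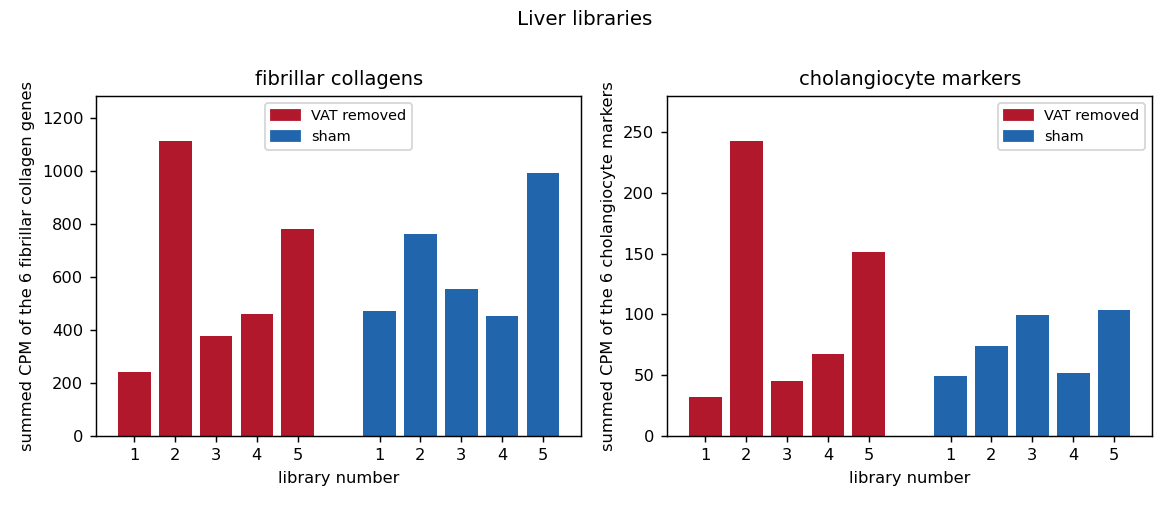
Summed CPM of the 6 fibrillar collagen genes (left) and of the 6 cholangiocyte markers (right) in each liver library, VAT removed in red and sham in blue, by library number. VAT removed library 2 is highest and VAT removed library 1 lowest in both panels, and most of the sum on the right is Spp1.

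The difference between the SAT and the liver response to VAT removal, tested as an interaction over all 20 libraries, was called for no matrix gene by edgeR, which called 0% of 19954 genes. DESeq2 called 124 of all genes and limma-voom 0, with 0 matrix genes among them. At an unadjusted p under 0.05, 2 matrix genes had a more positive response in SAT and 0 a more negative one, against 3.61% and 6.51% of all genes. Col5a3 had the smallest p: its response was 0.29 in SAT and -0.76 in liver, a difference of 1.04 ± 0.28 (edgeR adjusted p = 0.295). In SAT, Col5a3 had 768, 1022, 1036, 933 and 1035 CPM in VAT removed SAT, against 908, 603, 679, 607 and 1125 CPM in sham SAT. Sham libraries 2 and 4 were the 2 lowest and sham library 5 the highest, whereas in liver all 5 VAT removed libraries were below all 5 sham ones. For Thbs1 the responses were 0.99 in SAT and -0.20 in liver, a difference of 1.18 ± 0.55 (edgeR adjusted p = 0.486). Thbs1 in liver had 13.3, 16.8, 8.42, 11.8 and 13.4 CPM in VAT removed livers, against 11.4, 8.22, 13.8, 9.66 and 30.6 CPM in sham livers, where sham library 5 was far above the other 4. Thbs2, Lama3 and Mmp14 followed, with differences of 0.71 ± 0.44, 0.70 ± 0.51 and -0.24 ± 0.18. Without sham SAT libraries 3 and 4, the difference was 0.87 ± 0.29 for Col5a3 and 1.23 ± 0.65 for Thbs1. Thbs2, Lama3 and Mmp14 then had 0.37 ± 0.42, 0.75 ± 0.58 and -0.41 ± 0.17. For Fn1 it was -0.18 ± 0.34 with all libraries and -0.59 ± 0.22 without those 2, and again no matrix gene was called by edgeR. The median difference over the 43 genes was 0.24, where that of all genes was -0.03, and it was -0.02 without sham SAT libraries 3 and 4.

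Sham SAT held far more matrix RNA than sham liver. Between those 2 groups edgeR called 38 of the 43 genes higher in SAT and 3 lower, against 36.5% and 30.6% of all 19954 genes, and the median log2 difference, SAT minus liver, was 3.08. To compare genes, CPM scaled over all 20 libraries were divided by the length in kb of the principal transcript of each gene (GENCODE M21), so that the values depend on that choice of transcript. Sparc had the highest level in sham SAT, 1610 ± 410.4 CPM per kb, against 51.0 ± 12.7 CPM per kb in sham liver (SD, n = 5 each here and below). Col3a1 had 458 ± 101 CPM per kb in sham SAT and 50.3 ± 21.6 in sham liver. For Col4a1 the levels were 385 ± 82.3 and 27.4 ± 8.31 CPM per kb. In liver the order was another. Fn1 was highest there, with 116 ± 51.7 CPM per kb in sham SAT and 397 ± 62.4 in sham liver, and Col18a1 followed with 72.6 ± 18.2 and 391 ± 65.5 CPM per kb. These 2 genes and Col14a1 were the 3 called lower in SAT, with log2 differences of -1.77 ± 0.25, -2.43 ± 0.17 and -0.83 ± 0.31. Without sham SAT libraries 3 and 4, 37 genes were called higher and 2 lower, and Col14a1 and Lama3 were no longer called (edgeR adjusted p = 0.235 and 0.0689). Bgn and Timp1 were not called, with 0.43 ± 0.21 and -0.17 ± 0.52. The TMM factors of the fit of all 20 libraries were 0.752 to 0.891 in liver and 1.07 to 1.36 in SAT. Small tissue differences, and the sign of Timp1, therefore depend on the scaling across tissues. Scaled within each tissue, Col14a1 had 138 ± 69.0 CPM in sham SAT and 166 ± 27.9 CPM in sham liver. At that scaling Timp1 had 1.78 ± 0.44 and 1.355 ± 1.06 CPM.

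Among the genes higher in SAT, Lox had a log2 difference of 6.72 ± 0.37 between sham SAT and sham liver, Col15a1 5.10 ± 0.36, Fbln2 4.61 ± 0.29 and Col6a2 4.28 ± 0.39. Mfap5 had 816 to 2986 counts in the sham SAT libraries and 0 to 3 counts in the sham liver libraries. At the other end Lama3 and Mmp14 had 0.93 ± 0.36 and 0.57 ± 0.13, both called with all libraries. Proteoglycan levels were closer when CPM were scaled over all 20 libraries. Bgn had 128 ± 10.3 CPM per kb in sham SAT and 94.5 ± 26.9 in sham liver, and Dcn 261 ± 106 and 103 ± 24.7 CPM per kb. Scaled within each tissue, Bgn had 373 ± 31.5 CPM in sham SAT and 188 ± 55.5 CPM in sham liver.

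**Figure D5:**
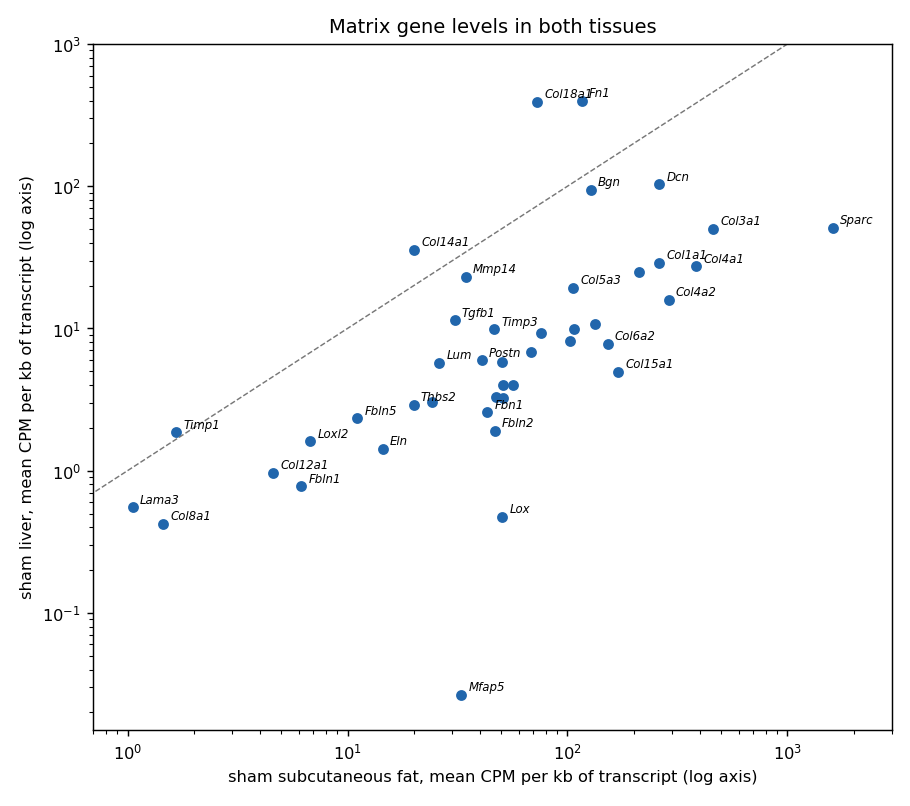
Mean level of each of the 43 genes in sham SAT (horizontal) and sham liver (vertical), in CPM per kb of the principal transcript, on log axes, with a dashed line of equal levels. CPM were scaled over all 20 libraries, so the place of points near the line depends on that scaling. Points stand for means of 5 libraries, and 12 points in the crowded middle carry no name: Col18a1, Fn1, Col14a1 and Timp1 lie above the line, and Lox and Mfap5 farthest below it.

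Chains that build 1 protein kept fixed ratios to a differing degree. Col4a1 and Col4a2 combine in the collagen IV trimer. The ratio of Col4a1 to Col4a2, each per kb, was 1.21 to 1.36 in VAT removed SAT and 1.27 to 1.38 in sham SAT, and 1.59 to 2.02 in VAT removed livers and 1.61 to 1.90 in sham livers. The coefficient of variation of this ratio over 10 libraries was 3.73% in SAT and 8.08% in liver, with no overlap of the 2 tissues. The ratio of Col1a1 to Col1a2 varied more in SAT, 1.13 to 1.90 in VAT removed SAT and 1.02 to 1.58 in sham SAT (coefficient of variation 20.5% over both). That of Col5a1 to Col5a2 was 1.22 to 1.457 in VAT removed SAT and 1.23 to 1.42 in sham SAT. In liver it spread over 1.37 to 3.58 in VAT removed and 1.14 to 2.85 in sham libraries, where Col5a2 had no more than 40.3 CPM. Col6a1 to Col6a2 had 0.859 to 1.04 in VAT removed SAT and 0.777 to 0.968 in sham SAT, against 1.19 to 1.78 in VAT removed livers and 1.28 to 1.71 in sham livers. The third chain varied more, with a Col6a3 to Col6a1 ratio of 0.518 to 0.912 in VAT removed SAT and 0.754 to 0.891 in sham SAT. In liver that ratio was 0.625 to 1.25 in VAT removed and 0.824 to 1.08 in sham libraries. Its coefficient of variation was 16.5% in SAT and 18.7% in liver.

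The Col4a1 and Col4a2 genes lie head to head on chromosome 8, and their promoter is shown because the pair had the steadiest ratio of those compared in both tissues. Their RefSeq starts are 21 bases apart on opposite strands, and their windows (GRCm38.p6, chr8:11312777-11313076, minus strand, and chr8:11312555-11312854, plus strand) share 78 bases. Capitals mark CCAAT and GGGCGG on either strand.
Col4a1: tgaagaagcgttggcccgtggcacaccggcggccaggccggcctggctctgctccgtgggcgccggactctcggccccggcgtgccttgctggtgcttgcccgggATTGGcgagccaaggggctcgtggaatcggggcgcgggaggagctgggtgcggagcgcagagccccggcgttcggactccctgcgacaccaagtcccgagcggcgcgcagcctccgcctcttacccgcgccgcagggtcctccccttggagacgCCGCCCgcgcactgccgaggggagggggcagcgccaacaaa
Col4a2: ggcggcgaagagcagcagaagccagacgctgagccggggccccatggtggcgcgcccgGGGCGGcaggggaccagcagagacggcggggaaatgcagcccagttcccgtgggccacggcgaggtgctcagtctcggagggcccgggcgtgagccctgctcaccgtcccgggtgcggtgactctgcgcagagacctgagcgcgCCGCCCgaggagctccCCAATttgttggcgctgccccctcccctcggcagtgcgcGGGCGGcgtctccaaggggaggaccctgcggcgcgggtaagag
CCAAT lies at -145 from the Col4a1 start and at -32 from the Col4a2 start, and GGGCGG at 10 from the Col4a1 start and at -192, -48 and 8 from the Col4a2 start. The GGGCGG matches at 10 from the Col4a1 start and at 8 from the Col4a2 start are the same bases, inside the shared stretch. Col6a1 and Col6a2, another pair of chains with genes on 1 chromosome, lie 85161 bases apart and on the same strand. Their ratio had a coefficient of variation of 9.01% in SAT.

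The other lists of matrix genes differed in their balance of higher and lower values in SAT. Of 28 genes of collagen maturation (prolyl and lysyl hydroxylases, chaperones, propeptidases and secretion factors), 27 were higher and 1 lower after VAT removal with all libraries, 5 of them higher at an unadjusted p under 0.05 and 0 lower, with a median log2 difference of 0.17. Without sham libraries 3 and 4, 16 were higher and 12 lower, with a median of 0.04. The 3 with the smallest p were P4ha3, a prolyl hydroxylase subunit (1.40 ± 0.43, with means of 0.67 ± 0.279 CPM in VAT removed SAT and 0.248 ± 0.132 CPM in sham SAT), Fkbp10, a collagen chaperone (0.34 ± 0.11), and Adamts14, a procollagen propeptidase (0.69 ± 0.23). Without sham libraries 3 and 4 these 3 had 1.90 ± 0.51, 0.22 ± 0.08 and 0.75 ± 0.30. Of 50 other matrix proteins 32 were higher and 18 lower (median 0.13), and 23 were higher and 27 lower without those 2 libraries (median -0.07). Nid2, a basement membrane linker, led them with 0.56 ± 0.20, and 0.42 ± 0.23 without sham libraries 3 and 4. Of 22 matrix receptors 19 were higher and 3 lower (median 0.18), and 13 were higher and 9 lower without those 2 libraries (median 0.07). The syndecan Sdc1 (0.40 ± 0.11, and 0.44 ± 0.12 without sham libraries 3 and 4) and the fibronectin receptor subunit Itga5 (0.47 ± 0.16, and 0.46 ± 0.20 without sham libraries 3 and 4) had the smallest p. Of 25 tested genes of TGF-beta signalling 14 were higher and 11 lower under both sets of libraries (median 0.14 with all and 0.08 without those 2), and Ltbp4, which binds latent TGF-beta in the matrix, had the smallest p (0.45 ± 0.12, and 0.39 ± 0.12 without sham libraries 3 and 4). Of 25 tested other matrix proteases and inhibitors 19 were higher and 6 lower (median 0.18), and 11 were higher and 14 lower without those 2 libraries (median -0.00996). The protease Adamts12 led them with 0.44 ± 0.13, and 0.28 ± 0.12 without sham libraries 3 and 4. None of these genes was called by edgeR.

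In liver the same lists had 16 higher and 10 lower of 26 collagen maturation genes (median 0.03), with P4ha2 at -0.52 ± 0.19. The other matrix proteins had 30 higher and 14 lower of 44 (median 0.12), with Smoc1, a calcium-binding matricellular protein, at 0.35 ± 0.11. Matrix receptors had 16 higher and 6 lower of 22 (median 0.10), with the laminin receptor subunit Itga6 at 0.73 ± 0.26. TGF-beta signalling had 12 higher and 13 lower of 25 (median -0.03), with the receptor Tgfbr1 at -0.29 ± 0.13, and the proteases and inhibitors had 11 higher and 12 lower of 23 (median -0.04), with Mmp11, stromelysin-3, at 0.87 ± 0.30. None was called by edgeR, and values are log2 differences ± SE.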

How the data were processed

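RNA depleted of ribosomal RNA was sequenced from 20 samples, per the labels' protocols. The tools named by the submitters' processing notes are bcl2fastq, STAR 2.5.1a and featureCounts 1.46 (Subread), with build GRCm38. Neither the strand setting nor the annotation of the counting is given in the sources used here. The authors deposited raw counts per gene symbol in 1 table, with no normalization. It had 40757 entries, of which 317 exact repeats were dropped. Titles gave the groups. Each tissue had its own fit in edgeR 4.0.16 (R 4.3.3): filterByExpr by group, TMM, robust quasi-likelihood F-test, Benjamini-Hochberg adjustment over all genes tested. The interaction and the tissue comparison used 1 fit of all 20 libraries, which treats liver and SAT libraries as separate mice. DESeq2 1.42.0, limma-voom (limma 3.58.1), RLE scaling, other filters, a block and the omission of libraries were alternatives. The code was tested on simulated counts. Gene positions and transcript lengths came from GENCODE M21 (longest principal transcript), matching 43 of 43 genes by symbol, and promoter windows from RefSeq (GRCm38.p6), which matched 26 of 43 genes. Counting error is small above about 10 CPM at this depth; genes near 0 CPM in liver rest on few counts. The genes and lists were chosen with earlier results of these data known. Named with values in every library were the 10 genes with the smallest p in each tissue, the 5 with the smallest in the interaction, the gene of each role group with the highest level per kb in sham SAT, and Fn1, Mfap5 and other genes added after their values were seen. Of other lists, at most 3 genes with the smallest p were named.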

Additional observations from a re-analysis of the deposited data

Results flagged for a closer look

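Among 172 sets of 5 libraries (43 genes in 4 groups), 10 held 1 library far from the other 4 by Dixon's test at the 95% level, which chance flags in about 1 set in 20. In SAT, Eln had 117 CPM in VAT removed library 2 (84.3 to 91.1 CPM in the other 4), and Timp1 had 3.97 CPM in the same library (1.69 to 2.13 CPM in the others). Postn had 90.8 CPM in sham SAT library 2, against 163 to 183 CPM in the other sham libraries. In liver, Lama3 had 8.62 CPM in VAT removed library 3, with 1.37 to 2.67 CPM in the other 4. Mfap5 had 0.303 CPM in the same library, against 0 to 0.0384 CPM, and 0.106 CPM in sham liver library 3, against 0 to 0.029 CPM. Sham liver library 5 had 30.6 CPM of Thbs1 (8.22 to 13.8 CPM in the other 4), 3.89 CPM of Lox (1.20 to 1.44 CPM) and 10.1 CPM of Loxl2 (5.94 to 6.42 CPM). Lamb1 had 20.1 CPM in sham liver library 1, against 27.4 to 29.0 CPM in the others.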

How the results depend on the processing

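In SAT, DESeq2 called 1 matrix gene higher (Thbs2) and 158 of all genes, against 0 by edgeR. Without sham SAT libraries 3 and 4 together, 4 genes were higher and 4 lower at an unadjusted p under 0.05, and 15 of the 43 log2 differences turned negative (among them Lamc1 at -0.16 and Sparc at -0.17) and 1 positive (Tgfb1 at 0.12). Leaving out 1 SAT library gave 6 to 14 genes higher (14 without sham library 5, 6 without VAT removed library 4) and 0 to 1 lower (1 without sham library 2). It moved the log2 difference of Lox over -0.14 to 0.10, Timp2 over -0.23 to 0.0933, Dcn over -0.27 to 0.0602, Lamc1 over -0.0292 to 0.17 and Sparc over -0.0393 to 0.16. Limma-voom gave Timp2 0.0595. In liver, DESeq2 called 1 gene lower (Col5a3) and 220 of all genes, limma-voom had 2 genes lower at an unadjusted p under 0.05 and Dcn at -0.0024, and leaving out 1 library gave 0 to 1 called lower (Lama3, without VAT removed library 3) and 1 to 2 lower at that p. Leaving out 1 liver library moved Col6a2 over -0.24 to 0.32, Tgfb1 over -0.0111 to 0.22, Dcn over -0.13 to 0.15, Fbln2 over -0.13 to 0.22, Sparc over -0.12 to 0.23, Col3a1 over -0.46 to 0.17, Lox over -0.54 to 0.18 and Timp2 over -0.0257 to 0.23. For the difference in response, 1 gene (of 2) was higher at an unadjusted p under 0.05 with no filter and with 1 CPM in 5 libraries, 1 was higher and 2 lower without sham SAT libraries 3 and 4, and leaving out 1 library gave 1 to 2; DESeq2 called 124 of all genes. The labels give the library numbers no meaning, and they were not taken as pairs. Deviations of same-numbered libraries correlated at -0.27 to 0.357 in SAT (2 of 5 pairs over 0.1), -0.0765 to 0.218 in liver (4 of 5 over 0.1) and -0.168 to 0.0988 across tissues. In SAT 3 of 10 libraries, and in liver 7 of 10, correlated best with their own number in the other group. Each pair enters this count from both of its libraries, so the 10 are not independent. Whether liver numbers carry something shared was not tested. With the number as a replicate block, 8 genes were higher at an unadjusted p under 0.05 in SAT, 3 were higher and 1 lower in liver, and 0 were called; the block gave Timp2 0.0451 in SAT, and Col6a2 -0.0018 (SE 0.126, against 0.439 with no block) and Dcn -0.0011 (SE 0.071, against 0.205) in liver. The tissue comparison had 38 or 39 genes called higher and 3 lower under the other tools, scaling, filters and blocks, 37 higher and 2 lower without sham SAT libraries 3 and 4, and 37 to 39 higher and 2 to 3 lower without 1 library. The cause of these changes was not tested.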

Other observations

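The spread between libraries differed among the groups. The median coefficient of variation over the 43 matrix genes was 14.4% in VAT removed SAT and 25.4% in sham SAT, and 39.8% in VAT removed livers and 31.4% in sham livers. The summed level of all 43 genes was 32888 to 37882 CPM in VAT removed SAT, against 22069 to 36229 CPM in sham SAT and 29818 to 36229 CPM in sham libraries 1, 2 and 5. In liver that sum was 6620 to 8145 CPM in VAT removed livers and 6061 to 6567 CPM in sham livers, and the groups did not overlap. Fn1 and Col18a1 made up most of the liver sum, which counts long and abundant RNAs most. No difference between these spreads or sums was tested.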
